A study of Homo sapiens with 6 samples.

Results

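The genes followed here, 10 of the 22989 in the count table, mark the secretory and surfactant-making epithelium of the lung. They are Scgb1a1, Scgb3a2, Sftpa1, Sftpb, Sftpc, Sftpd, Cyp2f2, Cyp4b1, Napsa and Nkx2-1, taken by exact match of the symbol. The genes were selected on the counts themselves, because their reads lay in the libraries labelled LINC00115 KD and hardly in the control libraries, so that difference is given here as a description, without a test. By the labels, the RNA came from MDA-MB-231 cells, a human triple-negative breast cancer line, which had been made resistant to paclitaxel (PTX) and sorted for high aldehyde dehydrogenase activity to obtain breast cancer stem-like cells (BCSC). KD libraries 1, 2 and 3 came from such cells carrying a short hairpin RNA against the lncRNA LINC00115. They are labelled sh115-1, sh115-2 and sh115-3 in this order. Their titles number them as replicates 1, 2 and 3. The study uses sh115-1 and sh115-2 as names of different hairpins, names sh115-2 for this comparison and names no sh115-3. Whether the labels number hairpins or replicates was not settled here. Control libraries 1, 2 and 3 came from the same resistant BCSC and are called WT in the labels, whereas the study names a control hairpin in its knockdown experiments. The labels do not say whether the 3 libraries of a group were separate cultures, so p-values measure only the spread between these libraries, which may be technical. LINC00115 was not analysed here, so the knockdown itself was not checked and each direction rests on the labels.

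In the lung, club cells of the small airways secrete secretoglobins and carry cytochrome P450 enzymes that oxidize inhaled chemicals. Alveolar type 2 cells make pulmonary surfactant, a lipid and protein film that lowers surface tension at the air surface. The hydrophobic proteins encoded by Sftpb and Sftpc spread that film, while the collectins encoded by Sftpa1 and Sftpd bind microbes. Napsa encodes an aspartic protease that helps process surfactant protein precursors, and Nkx2-1 encodes the homeodomain factor that drives many of these genes in lung and is also active in thyroid.

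The rows of the table carry the names of mouse genes. Cyp2f2, Kap and Cxcl15 are such names, and 1129 symbols end in Rik, the ending of mouse cDNA clones, 334 of them with at least 10 counts in every library. This is at odds with the human cell line in the labels and the human genome builds named for the series. The species that the RNA came from was not tested, and every count below is that of the row with the given symbol. Of the 10 members, 9 equal a human gene symbol apart from case, and Cyp2f2 equals none. Human promoter windows from RefSeq (GRCh38.p14) ran from 250 bases before to 50 bases after a gene start. For the members, 10 windows of 7 genes were used, and Scgb1a1, Sftpc and Cyp2f2 had none. Windows on 1 chromosome were left out for the members but not in the counts over all windows below. The windows are human sequence and need not be the promoters of the transcripts counted under these mouse-style symbols. Each window was searched on both strands for CTCAAG, a core bound by NKX2-1, and for GCNCTNNAG, a form of its recognition sequence at lung promoters, and matches were allowed to overlap. Of the 10 windows, 4 held CTCAAG, 4 held GCNCTNNAG and 6 held either, whereas 12.4%, 17.7% and 26.7% of all 35116 windows did. To show the matches in place, the windows of SCGB3A2 and SFTPA1 are given 5′ to 3′ on the strand of the gene, with matches in capitals: SCGB3A2 lies at chr5:147878461-147878760 on the plus strand with 1 match of each, and SFTPA1 lies at chr10:79610689-79610988 on the plus strand with 1 match of CTCAAG.
SCGB3A2: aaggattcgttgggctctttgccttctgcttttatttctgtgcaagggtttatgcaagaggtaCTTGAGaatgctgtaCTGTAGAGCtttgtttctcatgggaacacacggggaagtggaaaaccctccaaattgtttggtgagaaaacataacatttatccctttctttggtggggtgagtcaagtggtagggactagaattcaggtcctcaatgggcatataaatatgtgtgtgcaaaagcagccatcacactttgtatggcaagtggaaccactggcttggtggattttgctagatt
SFTPA1: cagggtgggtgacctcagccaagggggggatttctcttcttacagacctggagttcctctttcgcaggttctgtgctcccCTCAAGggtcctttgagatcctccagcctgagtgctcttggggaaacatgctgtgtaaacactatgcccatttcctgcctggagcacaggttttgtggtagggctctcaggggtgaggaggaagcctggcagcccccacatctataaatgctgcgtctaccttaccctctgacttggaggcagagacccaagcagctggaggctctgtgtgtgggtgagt
A match says only that the letters occur in the window, and the RNA counts do not measure binding there.

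Depth was even across the series. The 6 libraries held between 36979221 and 38799331 counts. For a count of 0, a limit of 3 counts was used, which is 0.0773 to 0.0811 CPM (counts scaled to the library total). The exact Poisson interval, used below for Cyp2f2, reaches 3.69 counts for a count of 0. Folds above the limit are given at 3 counts and would be smaller at 3.69. Intervals and these limits cover counting error only. The labelled cells showed high levels of the mesenchymal genes Vim (3440 ± 33.8 CPM in the control and 3710 ± 88.7 in the KD libraries, SD, n = 3 each) and Cd44 (917 ± 52.2 and 874 ± 11.3). Of the aldehyde dehydrogenase genes listed, Aldh1a1 had 0.329 ± 0.12 CPM in the control and 1.15 ± 0.161 in the KD libraries and Aldh1a3 was at or near 0, as was Sox2. Zeb1, a factor of mesenchymal cells, had 0.757 ± 0.153 CPM in the control and 1.32 ± 0.467 in the KD libraries. Esr1 encodes the estrogen receptor, a protein that triple-negative cells lack. Its row had 0.703 ± 0.0725 CPM in the control and 2.54 ± 0.284 in the KD libraries. Cdh1, the epithelial cadherin, had 0.0534 ± 0.0266 and 0.729 ± 0.14 CPM, and the epithelial marker Epcam had at most 5 counts in any library.

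Summed over the 10 genes, KD libraries 1, 2 and 3 held 2905, 3000 and 3266 counts, and control libraries 1, 2 and 3 held 36, 43 and 45. This was 80.4 ± 5.17 CPM against 1.1 ± 0.118 CPM (SD, n = 3 libraries each). Nearly all of the control counts belonged to Napsa, and without it the control libraries held 0, 0 and 6 counts while the KD libraries held 2633, 2795 and 3044. In bulk RNA, a smaller number of cells of a type cannot be told apart from less RNA per cell. At 3 or fewer counts in every control library and over 3 in every KD library stood 354 of the 5780 genes that were low in the control libraries and had a count, or 6.12%, and the reverse pattern held for 162 of 5266 genes (3.08%).

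**Figure D1:**
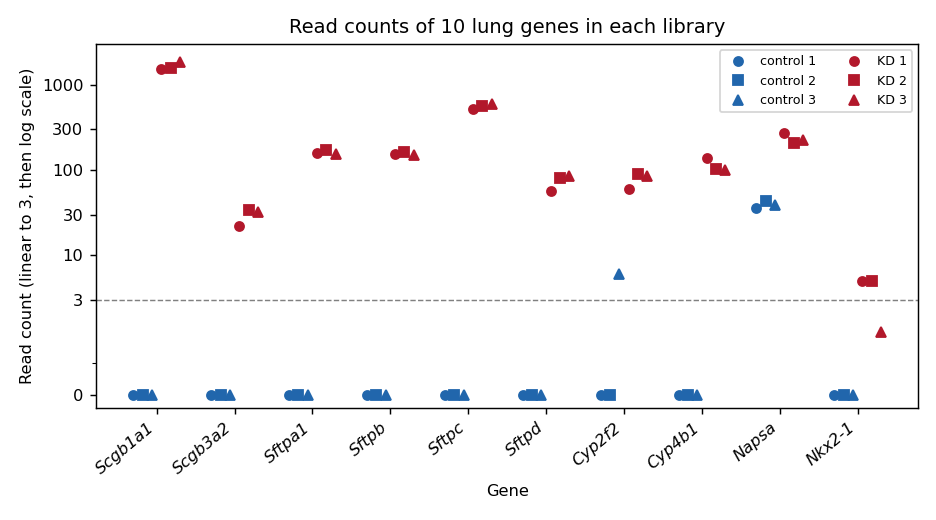
Read counts of the 10 genes (x axis) in each of the 6 libraries (y axis, linear up to 3 counts, marked by the dashed line, and logarithmic above). Blue points are control libraries and red points are KD libraries, with a symbol shape for each replicate number; the control points sit at 0 except for Napsa (36 to 43 counts) and Cyp2f2 in control library 3 (6 counts).

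Secretoglobins are small secreted proteins of the airway. Scgb1a1, the major secretory product of club cells, had 1516, 1586 and 1843 counts in KD libraries 1 to 3 and 0 in each control library. At 43.3 ± 4.5 CPM (SD, n = 3) it was 541-fold above the limit of 3 counts per control library. Scgb3a2, another airway secretoglobin, had 22, 34 and 32 counts in the KD libraries and 0 in each control library. Its KD mean was 9.66-fold above that limit. The groups did not overlap for either gene, and KD library 1 was the lowest of the KD libraries for both.

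Among the hydrophobic surfactant proteins, Sftpc, which marks alveolar type 2 cells, had 520, 561 and 589 counts in KD libraries 1 to 3. It had 0 in each control library. Its 14.6 ± 1.08 CPM in the KD libraries was 183-fold above the limit of 3 counts. Sftpb, without which surfactant cannot form its film, had 156, 164 and 150 counts against 0 in each control library, 51.5-fold above the limit. For Sftpb the KD libraries differed by no more than counting noise, with a chi-square per degree of freedom of 0.697 given the library totals, where a value near 1 is counting noise.

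The collectins followed the same split between groups. Sftpa1 had 159, 170 and 156 counts in KD libraries 1 to 3 and none in the control libraries, 53.1-fold above the limit. Sftpd had 57, 80 and 86 counts in the KD libraries and 0 in each control library, 24.5-fold above the limit. The human genome carries 2 nearly identical SFTPA genes, and the table has 4 genes with an Sftp symbol, all of them members. How reads of such copies would have been split in counting is not given in the sources used here.

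Both cytochrome P450 genes were low or absent in the control libraries. Cyp2f2, the naphthalene-oxidizing enzyme of mouse club cells, had 60, 91 and 85 counts in KD libraries 1 to 3 and 0, 0 and 6 counts in control libraries 1 to 3. The 6 counts of control library 3 have an exact Poisson interval of 2.2 to 13.1. Cyp4b1, which oxidizes fatty acids and is made in lung and kidney, had 138, 104 and 101 counts in the KD libraries. It had 0 in each control library, and its KD mean was 37.5-fold above the limit.

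Napsa was the only member with reads in every control library. It had 36, 43 and 39 counts in control libraries 1 to 3 and 272, 205 and 222 counts in KD libraries 1 to 3. In CPM this was 1.05 ± 0.0871 against 6.11 ± 0.786 (SD, n = 3 each), 5.83-fold higher in the KD libraries, and the groups did not overlap. Nkx2-1 was near the limit of detection, with 5, 5 and 2 counts in the KD libraries and 0 in each control library. In total this was 12 counts in the KD libraries and 0 in the control libraries.

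With over 3 counts in every KD library and no overlap between groups, 9 of the 10 members were higher in the KD libraries, as were 5289 of the 22406 genes with a count (23.6%). Nkx2-1 was the exception, through its 2 counts in KD library 3, and without that library 10 of 10 were higher. In the fit over all genes with edgeR, 9 members passed the filter on low counts and all 9 lay past the thresholds on the higher side, where 10.2% of the 13497 genes tested were called. Except for Napsa, which has enough control reads, these members passed the filter through the KD libraries. All were picked for being high there, so no support is drawn from that count.

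Which of these genes rise and fall together among the KD libraries was not used to choose them. Reads were compared as ratios between members within a library, which do not depend on its total. The values are ratios of reads and are not corrected for gene length, so they compare libraries and not the levels of genes. Scgb1a1 took 52.2% of the counts of the 10 genes in KD library 1 (Wilson 95% interval 50.4 to 54), 52.9% in KD library 2 (51.1 to 54.6) and 56.4% in KD library 3 (54.7 to 58.1). Its share in KD library 3 thus lay above the other two, with intervals that did not overlap with those of either.

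The proportions of Sftpa1, Sftpb and Sftpc to each other differed by at most 1.18 times between the KD libraries. For each read of Sftpa1, Sftpb had 0.981, 0.965 and 0.962 reads in KD libraries 1 to 3. This was the narrowest spread of the 36 pairs formed by the 9 members with at least 10 counts in every KD library. The 95% intervals of these 3 values (0.787 to 1.22, 0.779 to 1.2 and 0.769 to 1.2) were far wider, so their closeness is not read as a result. Sftpb had 0.3, 0.292 and 0.255 reads for each read of Sftpc. Sftpc had 0.343, 0.354 and 0.32 reads for each read of Scgb1a1, so that the alveolar and the airway gene differed in proportion by at most 1.11 times between libraries. Scgb3a2 had 0.0145, 0.0214 and 0.0174 reads, and Cyp2f2 0.0396, 0.0574 and 0.0461 reads, for each read of Scgb1a1. The 95% intervals of the 3 libraries overlapped for each of these ratios. Sftpd had 0.358, 0.471 and 0.551 reads for each read of Sftpa1, a range of 1.54 times, wider than the median of 1.43 over the 36 pairs, and its intervals overlapped at these low counts.

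Cyp4b1 and Napsa varied in their share between the KD libraries beyond the counting intervals, as Scgb1a1 did. Of the counts of the 10 genes, Napsa took 9.36% in KD library 1 (interval 8.36 to 10.5), 6.83% in KD library 2 (5.98 to 7.79) and 6.8% in KD library 3 (5.98 to 7.71). Cyp4b1 took 4.75% (4.03 to 5.59), 3.47% (2.87 to 4.18) and 3.09% (2.55 to 3.74). Both were thus highest in KD library 1, where Scgb1a1, Scgb3a2, Sftpc, Sftpd and Cyp2f2 had their lowest shares. Intervals failed to overlap for 8 of the 36 pairs, and each of these 8 pairs contained Napsa or Cyp4b1, while for the 21 pairs of the other 7 members they overlapped in 21. Against each other, Napsa and Cyp4b1 were steady, with 1.97, 1.97 and 2.2 reads of Napsa for each read of Cyp4b1.

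**Figure D2:**
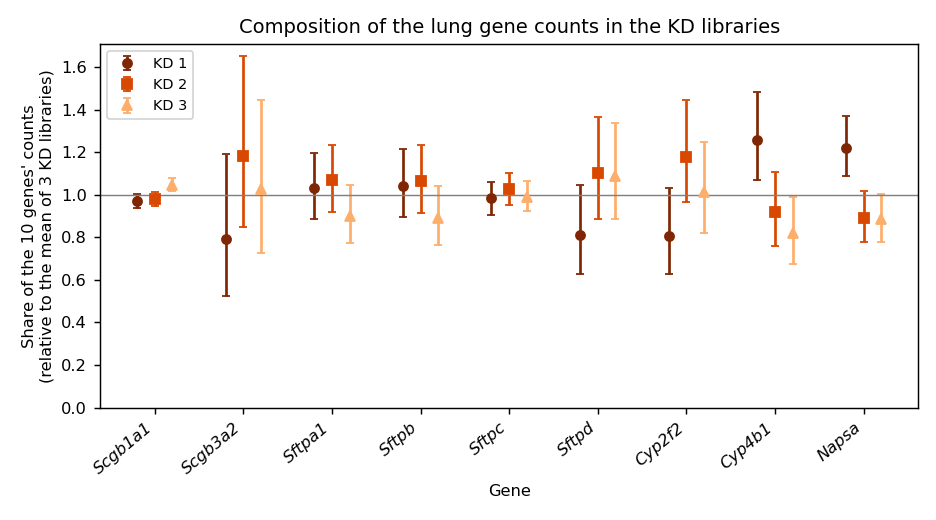
Share of the summed counts of the 10 genes taken by each gene (x axis; the 9 with at least 10 counts in every KD library) in KD libraries 1 to 3, divided by its mean over the 3 libraries (y axis, ratio, starting at 0). Bars are Wilson 95% intervals; Cyp4b1 and Napsa stand highest in KD library 1, and Scgb1a1 in KD library 3.

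Over the table of 10 genes and 3 KD libraries, the counts departed from equal proportions by a chi-square per degree of freedom of 3.03. Without KD library 1 it was 1.38, and without Napsa and Cyp4b1, left out after their values were seen, it was 1.56. Given the library totals, the same measure for single genes had a median of 3.08 over the 9 members tested, with a range from 0.697 (Sftpb) to 18 (Scgb1a1), and a median of 2.88 over all genes tested, of which 78.5% lay above 1. The medians were thus close. The measure grows with the number of counts. Relative to its mean, Scgb1a1 had a coefficient of variation of 10.4% between the KD libraries. This value was higher for Napsa (12.9%), Cyp4b1 (16.3%), Sftpd (21.7%), Cyp2f2 (22.8%) and Scgb3a2 (23.8%), and lower for Sftpa1 (7%), Sftpb (6.71%) and Sftpc (7.36%). Counting error alone would give 2.46% for Scgb1a1, 6.55% for Napsa, 9.35% for Cyp4b1, 11.6% for Sftpd, 11.3% for Cyp2f2 and 18.5% for Scgb3a2. For Sftpa1, Sftpb and Sftpc it would give 7.86%, 7.99% and 4.24%. Nkx2-1, with few counts, had the highest coefficient of variation of the 10 genes, 43.9%, where counting error alone would give 50%.

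Napsa and Cyp4b1 are also made in kidney. Of the kidney genes, Kap, the androgen-regulated protein of mouse kidney tubules, had 466, 311 and 410 counts in KD libraries 1 to 3 and 0 in each control library. Slc34a1, a phosphate transporter of the proximal tubule, had 137, 112 and 160 counts in the KD libraries and 1, 0 and 0 in the control libraries. The part of kidney transcripts in the counts of Napsa and Cyp4b1 was not tested.

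The other genes of the lung epithelium were taken from lists of club, alveolar type 1, alveolar type 2 and ciliated cells, 53 genes in all besides the members. Of these, 27 had at most 3 counts in every control library. Over 3 counts in every KD library were held by 16 of the 27 (59.3%), where 6.12% of all such genes did. The lists were chosen with earlier results of these data known, so this share is a description and no support is drawn from it. In the fit over all genes, 30 of the 53 were tested, with 18 called higher and 1 lower. Genes were called at an adjusted p-value under 0.05 (edgeR's quasi-likelihood test, Benjamini-Hochberg over 13497 genes) and a fold change over 2, by which 10.2% of genes were higher and 9.98% lower. Of the 30, 17 had fewer than 10 counts in at least 1 control library and needed their KD reads to pass the filter, and 15 of these 17 were called higher, so their calls are a description. The other 13 reached 10 counts in each control library, and 3 of them were called higher (Cbr2, Dram1 and Ager) and 1 lower (Tmem212). Their median log2 fold change was 0.15. Over all 12618 genes tested with as many control reads, 7.14% were called higher and 10.6% lower, and the median was −0.04. The counts of calls for each list below include genes that passed the filter through their KD reads.

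The other club cell genes had lower counts than Scgb1a1 in the KD libraries, and not all shared its split between groups. Of 14 listed, 6 were tested, 5 were called higher and 0 lower, 4 of the 5 with under 10 counts in a control library, and 9 of the 12 genes at or under 3 counts in the control libraries had over 3 in every KD library. Pigr, the receptor that carries immunoglobulin A into secretions, had 21, 23 and 31 counts in KD libraries 1 to 3 and 0 in each control library. Bpifa1, a secreted airway defence protein, had 21, 18 and 31 counts and again none in the control libraries. Scgb3a1, the only other Scgb gene of the table with more than 3 counts in any library, had 11, 14 and 4 counts in the KD libraries and 0 in each control library. Cbr2, a carbonyl reductase abundant in mouse lung, was already present in the control libraries at 5.69 ± 0.531 CPM and rose to 13.9 ± 0.613 CPM in the KD libraries (log2 fold change 1.30 with a standard error of 0.12, adjusted p = 6.08e-12 by edgeR). Muc5b, an airway mucin, stood apart, with 0, 0 and 85 counts in control libraries 1 to 3 and 11, 15 and 8 in the KD libraries. Control library 3 was thus alone among the control libraries in having reads of Muc5b and of Cyp2f2, but it had none of Scgb1a1 or Sftpc.

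Alveolar type 2 genes were called higher in 7 of 11 tested and lower in 0, of 14 listed, and 6 of the 7 had under 10 counts in a control library. Dram1, an autophagy regulator with many reads in the control libraries, rose from 11.4 ± 1.75 to 24.1 ± 1.96 CPM and was called higher. Slc34a2, the phosphate transporter of these cells, had 114, 82 and 126 counts in KD libraries 1 to 3 and 0 in each control library, and Cxcl15, a chemokine known from mouse lung, had 49, 43 and 47 against 0. Lamp3, a protein of the lamellar bodies that store surfactant, had 1, 6 and 4 counts in the control and 26, 51 and 41 in the KD libraries. Lyz2, a lysozyme shared with macrophages, had 33, 52 and 5 counts in the control and 249, 250 and 247 in the KD libraries. The genes with the most reads on this list, Lpcat1, Etv5 and Ctsh, went from 89 ± 3.71, 128 ± 4.42 and 105 ± 1.75 CPM in the control libraries to 95.4 ± 2.46, 76.6 ± 3.27 and 55.6 ± 1.93 CPM with the hairpin, and none passed a fold change of 2.

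**Figure D3:**
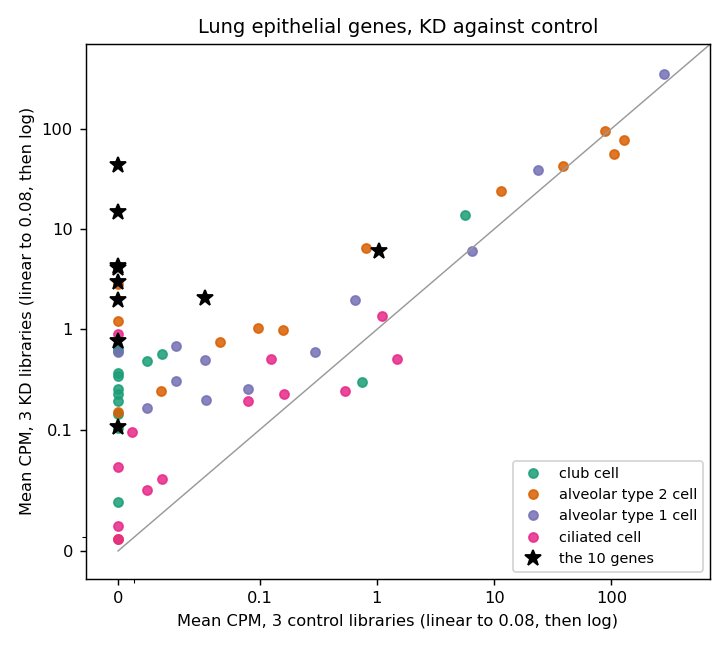
Mean CPM of each gene in the 3 control libraries (x axis) and the 3 KD libraries (y axis), both linear up to 0.08 and logarithmic above. Circles are 53 genes of 4 lung epithelial lists, black stars are the 10 genes, and the line marks equal values; genes near 0 in the control libraries lie above the line, while those with many control reads lie on both sides of it.

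Genes that handle surfactant beyond the secreted proteins did not move as a group. Of 9 listed, 8 were tested and 2 were called higher, Slc34a2 and Lamp3, both through their KD reads, with 0 lower. The 6 with at least 10 counts in every control library had a median log2 fold change of 0.13. Adgrf5, a receptor that limits the surfactant pool, had 148 ± 6.4 CPM in the control and 180 ± 2.01 CPM in the KD libraries. Pcyt1a, which makes the choline lipid precursor, had 81.4 ± 3.22 and 154 ± 1.79 CPM, just under a fold change of 2. Abca3, the lipid pump of lamellar bodies, had 39 ± 3.16 and 42.6 ± 2.8 CPM. Ctsh, a protease that processes surfactant precursors, had 105 ± 1.75 and 55.6 ± 1.93 CPM, and Csf2rb, a receptor chain needed for surfactant clearance, 20.3 ± 0.928 and 14.7 ± 1.92. These genes are also active in many other cell types.

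Other transcription factors listed for the lung gave no common direction. Of 14 listed, 9 were tested, 3 were called higher and 1 lower. Grhl2, an epithelial factor, rose from 2.98 ± 0.71 to 9.81 ± 1.5 CPM (log2 fold change 1.74, adjusted p = 3.10e-11, edgeR). Tfcp2l1 had 2, 4 and 2 counts in the control and 88, 58 and 77 in the KD libraries, and like Hopx it passed the filter through its KD reads. Hopx, a homeodomain protein of alveolar type 1 cells, had 0, 0 and 4 counts in the control and 30, 17 and 32 in the KD libraries. Id2, an inhibitor of helix-loop-helix factors, fell from 25.2 ± 1.01 to 4.32 ± 0.543 CPM (log2 fold change −2.53, adjusted p = 6.71e-21, edgeR). The factors with the most reads on this list, Sox9 and Etv5, had 96.8 ± 4.62 and 76.6 ± 3.27 CPM in the KD and 176 ± 5.34 and 128 ± 4.42 in the control libraries. Foxa2, a partner of Nkx2-1 at surfactant promoters, had 0, 4 and 6 counts in KD libraries 1 to 3 and 0 in each control library, and Foxp2 had none in any library.

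Genes of the gas-exchange surface and of ciliated cells were also listed. Of 12 alveolar type 1 genes, 8 were tested, 4 were called higher and 0 lower, 3 of the 4 with under 10 counts in a control library. Ager, the receptor that defines these flat cells, rose from 0.649 ± 0.037 to 1.98 ± 0.391 CPM (log2 fold change 1.62, adjusted p = 0.000165, edgeR), and Clic5 had 21, 20 and 27 counts in the KD and 0 in the control libraries. Emp2 and Aqp5 had the most reads, with 349 ± 6.72 and 39.2 ± 1.76 CPM in the KD and 283 ± 10.1 and 23.5 ± 4.05 in the control libraries. Of 13 ciliated cell genes, 5 were tested, 2 were called higher and 1 lower, both higher genes with under 10 counts in a control library. Sec14l3 had 22, 40 and 40 counts in the KD libraries and 0 in the control libraries, and Foxj1, the master regulator of motile cilia, had 25, 21 and 12 against 5, 4 and 5. Tppp3, with the most reads on the list, had 1.37 ± 0.262 CPM in the KD and 1.11 ± 0.473 in the control libraries, and Tmem212 was lower (log2 fold change −1.50, adjusted p = 0.0013, edgeR).

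Relatives of the P450 members went both ways. Of 23 other Cyp2 genes, 8 were tested, 3 were called higher and 2 lower, and of 15 other Cyp4 genes, 4 were tested, with 0 higher and 2 lower. Cyp2e1 had 42, 26 and 49 counts and Cyp2j5 36, 31 and 31 counts in KD libraries 1 to 3, and both had 0 in each control library. Cyp2s1 fell, with 82, 56 and 52 counts in the control and 8, 2 and 11 in the KD libraries, and so did Cyp4f17, from 220, 253 and 240 to 45, 46 and 34.

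Markers of other cells that a lung or the sort could hold were measured in the same way, and their part in the counts of the members was not tested. Sums are in CPM over all genes of a list. A sum over only the genes with at most 3 counts in every control library is given beside it, and is near 0 in the control libraries by its construction. Kidney genes summed to 29.1 to 33.3 CPM in the KD and 9.40 to 10.04 in the control libraries, and those low in the control libraries to 19.1 to 22.4 in the KD libraries. Of 11 kidney genes tested, 9 were called higher and 0 lower, and each of the 9 had under 10 counts in a control library. Kap (10.4 ± 1.82 CPM in the KD libraries and 0 counts in each control library) and Cubn (6.03 ± 0.378 CPM, and 8.33 ± 0.166 in the control libraries) had the highest levels. The 5 erythroid genes were all low in the control libraries, with 0 to 0.0797 CPM there and 1.62 to 2.32 in the KD libraries, led by Hbb-bs and Hba-a1, which were the 2 genes tested and were called higher. Other leukocyte genes summed to 92.5 to 104.9 CPM in the KD and 33.8 to 35.8 in the control libraries (1.88 to 2.16 in the KD libraries for those low in the control libraries), and 3 of 4 tested were higher and 0 lower. S100a8 had 94.5 ± 6.35 CPM in the KD and 33.2 ± 1.17 in the control libraries, Cd74 had 3.25 ± 0.697 and 0.935 ± 0.263, and the pan-leukocyte gene Ptprc had 13, 8 and 8 counts in the KD and 12, 5 and 5 in the control libraries.

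Other components of lung tissue went both ways. Of endothelial genes, 2 of 8 tested were called higher (Cdh5 and Esam) and 1 lower (Tie1). They summed to 203 to 216 CPM in the KD and 90.8 to 97.7 in the control libraries, and those low in the control libraries to 0.825 to 1.23 in the KD libraries. Eng had 140 ± 6.91 CPM in the KD and 83.1 ± 2.9 in the control libraries. Cdh5, the cadherin of vessel walls, went from 14, 5 and 6 counts in the control to 2175, 2136 and 2243 in the KD libraries, while the defining vessel gene Pecam1 had 11, 6 and 9 against 19, 7 and 11. Lung mesenchyme genes gave 1 higher (Limch1) and 2 lower (Pdgfra and Dcn) of 4 tested, and summed to 95.9 to 101 CPM in the KD and 185 to 204 in the control libraries (0.644 to 1.41 in the KD libraries for those low in the control libraries). Pdgfra had 74 ± 1.56 CPM in the KD and 179 ± 9.67 in the control libraries, and Npnt 18.8 ± 1.28 and 11.6 ± 0.882. Alveolar macrophage genes gave 3 higher and 1 lower (Mrc1) of 6 tested, and summed to 133 to 136 CPM in the KD and 75.1 to 98.6 in the control libraries (0.379 to 0.541 in the KD libraries for those low in the control libraries). Plet1 had 75.9 ± 2.1 CPM in the KD and 21.3 ± 2.74 in the control libraries, Cd68, which was not called, had 46.9 ± 2.3 and 43.1 ± 7.73, and Marco had 0, 0 and 1 counts in the KD libraries.

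For thyroid, the other organ that uses Nkx2-1, 2 of 2 tested genes were called higher, each with under 10 counts in a control library, Pax8 (0.196 ± 0.12 CPM in the control and 1.22 ± 0.49 in the KD libraries) and Slc5a5 (0.275 ± 0.0752 and 0.687 ± 0.388), but Tg had 3, 0 and 7 counts in the KD and 3, 4 and 6 in the control libraries. The thyroid list summed to 1.59 to 2.66 CPM in the KD and 0.592 to 0.956 in the control libraries, and its genes low in the control libraries to 0.0782 to 0.155 in the KD libraries. Liver genes had 0 of 8 tested and summed to 0.0521 to 0.325 CPM in the KD and 0 to 0.372 in the control libraries (0.0261 to 0.216 in the KD libraries for those low in the control libraries), with Fga at 0, 7 and 0 counts, Apoa1 at 2, 4 and 1 and Alb at 1, 0 and 0 in the KD libraries. Of heart muscle genes, 1 was tested and not called (Tnnt2, 12.5 ± 0.968 CPM in the KD and 13.4 ± 0.951 in the control libraries). The list summed to 12.4 to 14.5 CPM in the KD and 12.5 to 14.3 in the control libraries (0.387 to 0.704 in the KD libraries for those low in the control libraries), with Myh6 at 11, 8 and 14 counts in the KD and 0 in the control libraries. On the list of genes for the labelled cells, 3 of 9 tested were called higher and 0 lower, and it summed to 5529 to 5682 CPM in the KD and 5163 to 5233 in the control libraries (0.619 to 1.15 in the KD libraries for those low in the control libraries).

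**Figure D4:**
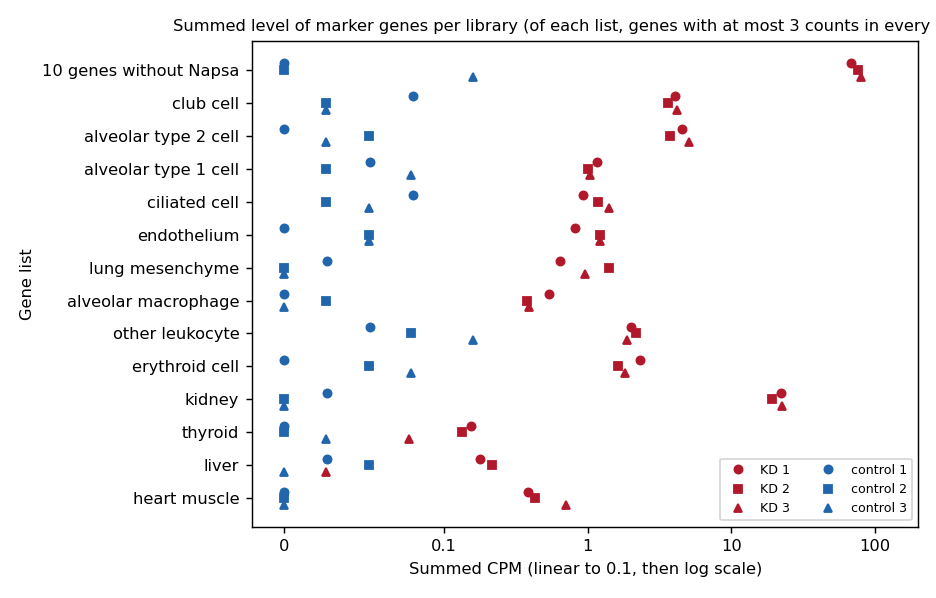
Summed CPM per library (x axis, linear up to 0.1 and logarithmic above) for 9 of the 10 genes and for marker lists (y axis). The 9 genes leave out Napsa, and control library 3 holds 6 counts of Cyp2f2. For each list shown, only genes with at most 3 counts in every control library are summed, which are near 0 there by their choice. The lists of surfactant handling, lung transcription factors and labelled cells are not drawn. Red points are KD libraries and blue points are control libraries; the 9 genes and the kidney genes (19.1 to 22.4 CPM) lie highest in the KD libraries.

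Genes with the profile most like that of the members were found among 11517 other genes with at least 30 counts in every KD library. Likeness was the root mean square difference, over the 6 libraries, between a gene's centred log2(CPM + 0.1) values and the mean of those of the members, and it follows the difference between the groups that chose the members. The nearest were Ifit3 (0.0928), Slc27a2 (0.118), Pax5 (0.143), Umod (0.148) and Sema4f (0.171). They differ in level, since Ifit3, an interferon-induced gene, had 234, 226 and 227 counts in the control and 6540, 6590 and 6402 in the KD libraries, whereas Umod, the uromodulin gene of kidney tubules, had none in the control and 76, 93 and 112 in the KD libraries. Slc27a2, a fatty acid transporter of liver and kidney, likewise had 0 counts in each control library and 89, 88 and 110 in the KD libraries. Among the members, the distance from their own mean ran from 0.223 for Sftpd to 2.05 for Scgb1a1.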

How the data were processed

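Total RNA was sequenced from 3 KD and 3 control libraries. The authors trimmed adapters, mapped the reads with HISAT2 and deposited raw counts of 22989 genes as whole numbers. The paper's methods name the build hg19, and the submitters' processing notes name hg38, featureCounts and DESeq2. Annotation and strand setting are not given in the sources used here. Each column was assigned by its name, and 0 columns were left unused. The members and gene lists were chosen with earlier results of these data known. Named are all members, the leading genes of each list, list genes called against their list, and the 5 genes most like the members, with others chosen after their values were seen.

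Library totals used all genes. In R 4.3.3 with edgeR 4.0.16, filterByExpr (count of 10, total of 15) kept 13497 genes, TMM scaled them, and a quasi-likelihood test on group alone compared them, with Benjamini-Hochberg adjustment. Called genes had an adjusted p below 0.05 and differed over 2-fold. Each standard error is |log2 fold change| over the root of its F value. CPM use library totals. Folds against a group at 0 used 3 counts per library. The fit was tested on simulated data. Alternatives were DESeq2 size factors, library totals, other low-count filters, DESeq2 1.42.0's test, a replicate block, no fold-change threshold and leaving out each replicate. Ratios, intervals and chi-square values were computed with scipy 1.17.1.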

Additional observations from a re-analysis of the deposited data

How the results depend on the processing

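Above every control library stood 9 members, also with raw counts, with TMM-scaled CPM and with at least 10 counts in every KD library, and 9 to 10 with each replicate left out. The summed level of all 10 members in the KD libraries, 80.4 CPM, was 80.9 CPM with TMM-scaled totals, 78 to 83.1 CPM with each KD replicate left out and 37 CPM without Scgb1a1. The share of Scgb1a1 was 53.8% as a mean of the KD libraries, 53.9% with pooled counts and 52.5 to 54.6% with each left out. The chi-square per degree of freedom of the members' composition, 3.03, ranged from 1.38 (without KD replicate 1) to 4.38 with a replicate left out, and was 2.54 without Scgb1a1 and 1.56 without Napsa and Cyp4b1, the last chosen after seeing the data. Of the other lung epithelial genes, 18 were called higher, 28 of 53 without a low-count filter, 27 of 46 with DESeq2's Wald test and 3 of 12 with at least 10 counts in every sample, a filter that removes genes at 0 in the control libraries. Leaving out each replicate gave 18 to 23. Over all genes, the 1381 higher and 1347 lower calls became 4952 and 4960 without the fold-change threshold and 903 and 919 under that stricter filter, and ranged from 1405 to 1488 and from 1257 to 1392 with each replicate left out. With the replicate number as a block they were 1360 and 1316, with 18 lung epithelial genes. Deviations of same-numbered libraries correlated at 0.014, −0.019 and −0.02 across genes, and those of the other pairs at −0.018 to 0.038. No pairing by number was thus seen across genes, and a pairing that touches few genes was not tested. Depth limits Nkx2-1, Scgb3a1 and other genes with few counts, for which a single library decides whether the limit of 3 counts is passed.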
